A study of Arabidopsis thaliana with 6 samples.

Results

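Seedlings of importin123, labelled as a triple mutant of importin alpha genes, were set directly against seedlings of lhp1-3, labelled as a mutant of LHP1, and every nuclear gene was read for the difference between them. The comparison holds 4 of the 6 libraries of the series, 2 of importin123 and 2 of lhp1-3, and the other 2, of the wild type Col-0, are given as further values beside the mutants. All 3 genotypes share the Col-0 background, whole seedlings as the tissue, MS medium with 0.8% sucrose, long days of 16 h light and 8 h dark, and collection at ZT12, that is 12 h after lights on. No plant age was used here, and the labels name no cultures or pools behind the replicates, so the p-values measure the spread between these libraries, which may be technical. Genes were taken by their nuclear identifiers (AT1G to AT5G), which gave 32548 of the 34262 features in the table, and 32308 of them had enough counts to be tested.

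Importin alpha proteins bind cargo that carries a nuclear localisation signal and, together with importin beta, carry it through the nuclear pore. LHP1, LIKE HETEROCHROMATIN PROTEIN 1, binds the Polycomb mark H3K27me3 on histone tails and is needed to keep many developmental genes silent, among them the floral MADS-box genes and FT. The title of the series states its question as how far the genes mis-regulated in these mutants overlap, and a direct contrast lists the genes at which the mutants differ from each other.

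Libraries held 70137936 and 71527792 counts in importin123, 90725014 and 81566899 in lhp1-3 and 78775091 and 95101867 in Col-0. The read floor, the median RPKM (reads scaled by gene length and library size) of the 2304 least covered long protein-coding genes, was 1.79 and 1.32 in importin123, 1.53 and 1.45 in lhp1-3 and 0.207 and 0.249 in Col-0. It was thus of like height in both mutants and several times lower in Col-0, so a gene with few reads in the mutants can appear above Col-0 through the floor. Chloroplast features took 13.7% to 18.7% of counts in the 4 mutant libraries and 2.95% to 3.27% in Col-0, with the highest share and the highest floor both in importin123 replicate 1. Replicates of each genotype correlated at 0.986 to 0.992 (Pearson r across genes, which are not independent replicates). The chi-square of counts between replicates, per degree of freedom, was 52.1 in importin123, 21.9 in lhp1-3 and 28.2 in Col-0. By that measure the importin123 replicates lay farthest apart.

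Of the 32308 nuclear genes tested, 958 were higher in importin123 than in lhp1-3, which is 2.97% of those tested, and 2044 were lower, which is 6.33% (edgeR quasi-likelihood test, two-sided, Benjamini-Hochberg adjusted p under 0.05). Changes of at least 2-fold in the point estimate made up 316 of the higher and 385 of the lower calls. The median log2 fold change over all tested nuclear genes was -0.03. The balance of directions turned on a single library. With importin123 replicate 1 left out, 735 genes were higher and 603 lower, and with importin123 replicate 2 left out 572 were higher and 2312 lower. Without lhp1-3 replicate 1 the counts were 455 and 753, without lhp1-3 replicate 2 they were 473 and 872, and without Col-0 replicate 1 or 2 they were 1438 and 2646 or 1442 and 2640. On the deposited RPKM, limma on log2(RPKM + 1) split the calls 48.2% higher to 51.8% lower, against 31.9% and 68.1% by edgeR on the counts. In importin123, replicate 2 was above replicate 1 in 1657 of the 2044 lower calls and in 600 of the 958 higher calls.

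**Figure D1:**
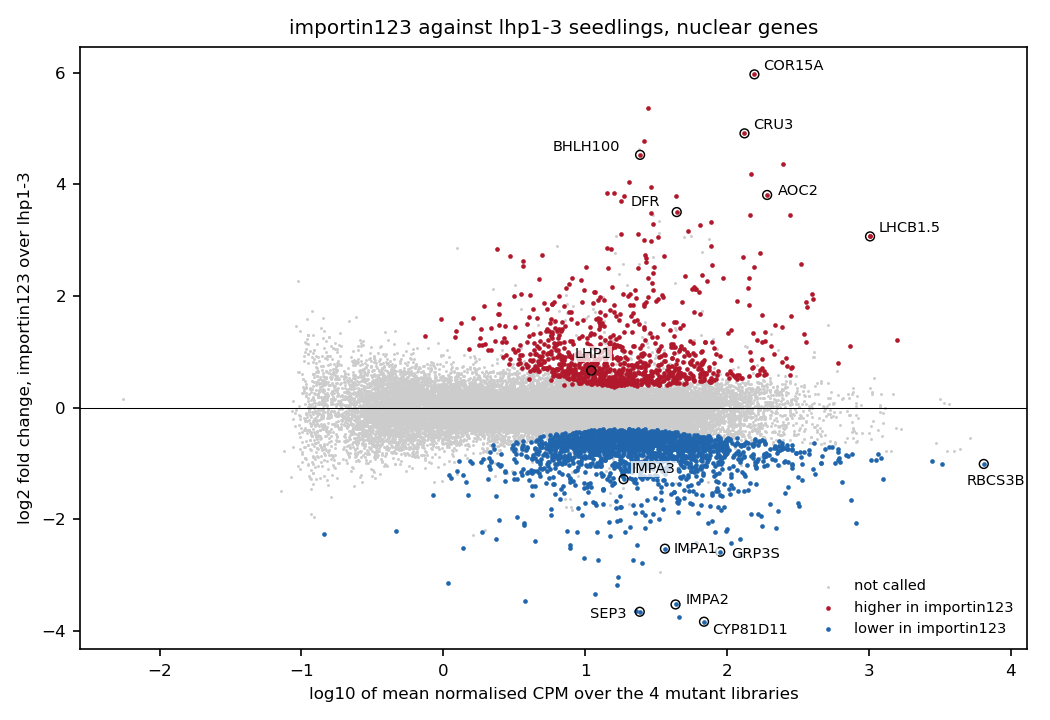
Each point is 1 of the 32308 tested nuclear genes, with the log10 of its mean normalised CPM over the 4 mutant libraries on the x axis and its log2 fold change of importin123 over lhp1-3 on the y axis. The 958 genes called higher in importin123 are red, the 2044 called lower are blue, and circled genes are named in the text, with COR15A the farthest up at 5.97 among them and CYP81D11 the farthest down at -3.83.

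The genes named by the mutants' labels came first, as a check of those labels. IMPA1 (chr3:2120324-2124166 on TAIR10.1), an importin alpha, had normalised CPM (counts scaled to a common library size by TMM) of 11.2 and 10.4 in importin123, against 61.3 and 62.9 in lhp1-3 and 112 and 110.4 in Col-0 (log2 fold change -2.52 ± 0.14 (SE), adjusted p = 2.34e-09; SE is the standard error of the fit). IMPA2 (chr4:9133750-9137415) had 7.27 and 6.6 in importin123, against 73.1 and 86.1 in lhp1-3 and 151 and 145 in Col-0 (log2 fold change -3.52 ± 0.16 (SE), adjusted p = 2.25e-10). IMPA3 (chr4:950546-953690), whose annotated span overlaps its same-strand neighbour AT4G02140 by 518 bases, had 11.1 and 10.6 in importin123, against 27.7 and 25 in lhp1-3 and 43.7 and 41.4 in Col-0 (log2 fold change -1.28 ± 0.12 (SE), adjusted p = 1.86e-06). In all 3 genes both importin123 libraries lay below both lhp1-3 libraries, and on this scaling lhp1-3 in turn lay below Col-0. The TMM factors were 1.18 and 1.13 in importin123, 1.12 and 1.06 in lhp1-3 and 0.807 and 0.788 in Col-0. They raise Col-0 levels against both mutants, so every place given against Col-0 in normalised CPM depends on this scaling. LHP1 (chr5:5827142-5829763) had 12.9 and 14.2 in importin123, against 9.1 and 7.95 in lhp1-3 and 17.7 and 17 in Col-0 (log2 fold change 0.67 ± 0.12 (SE), adjusted p = 0.0019), so lhp1-3 held the lowest level of the gene. On this scaling importin123 lay between lhp1-3 and Col-0, and its place against Col-0 rests on the TMM factors. These counts cover whole gene spans and do not show which part of a transcript remained. LHP1 did not pass when lhp1-3 replicate 2 was left out (adjusted p = 0.0591). AT2G46520 did not pass when either lhp1-3 library or importin123 replicate 2 was left out, under RLE scaling or in the fit of nuclear genes only (adjusted p from 0.0522 to 0.525). LHP1 had a log2 fold change of 1.05 with the floor taken off. IMPA2 lay too close to the floor in at least 1 mutant for a fold without it. The other importin alpha genes IMPA4 to IMPA9 had log2 fold changes between -0.25 for IMPA8 and 0.18 for IMPA9, and none passed the test. Over the whole list of 23 importin and nuclear transport genes, 1 was higher (4.35%), AT2G46520 at 0.44, and 3 were lower (13%). Over all tested nuclear genes 2.97% were higher and 6.33% lower. The 3 lower genes were IMPA1, IMPA2 and IMPA3, and the list median was 0.08.

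Many genes of the response to abscisic acid (ABA), cold and drought stood higher in importin123 than in lhp1-3. ABA accumulates under water deficit and cold, binds PYR/PYL receptors that hold back PP2C phosphatases, and so frees kinases that act on bZIP factors, while CBF and DREB factors act on the cold and drought genes beside them. Of the 29 list members 16 were called higher and 1 lower, which is 55.2% and 3.45% against 2.97% and 6.33% of all tested nuclear genes, and the list median log2 fold change was 0.83 against -0.03. COR15A, which encodes a small chloroplast protein that protects membranes in freezing, had normalised CPM of 176 and 437 in importin123, against 4.94 and 4.85 in lhp1-3 and 4.76 and 5.34 in Col-0 (log2 fold change 5.97 ± 0.59 (SE), adjusted p = 0.0111). The lhp1-3 and Col-0 levels of COR15A overlapped, and both importin123 levels were far above them, with replicate 2 the higher. RAB18, a dehydrin of the ABA response, had 332 and 679.5 in importin123, against 42 and 50.7 in lhp1-3 and 100.5 and 103 in Col-0 (log2 fold change 3.45 ± 0.34 (SE), adjusted p = 0.000506). KIN2, a small cold-induced hydrophilic protein, had 238 and 356 in importin123, against 41.7 and 45.7 in lhp1-3 and 75.8 and 77.6 in Col-0 (log2 fold change 2.76 ± 0.19 (SE), adjusted p = 8.05e-08). For KIN2 and RAB18 the order was importin123, then Col-0, then lhp1-3, and the groups did not overlap.

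The windows below hold the 250 bases before the annotated start of COR15A and RAB18, the members of this list with the largest fold changes, from the RefSeq genome of build TAIR10.1. The window of COR15A spans chr2:17712331-17712580, minus strand, and that of RAB18 spans chr5:26519448-26519697, minus strand, each printed 5′ to 3′ on the strand of the gene. Capitals mark CCGAC, the core of the element bound by CBF and DREB factors, and ACGTG, the core of the ABA-responsive element, on either strand.
COR15A: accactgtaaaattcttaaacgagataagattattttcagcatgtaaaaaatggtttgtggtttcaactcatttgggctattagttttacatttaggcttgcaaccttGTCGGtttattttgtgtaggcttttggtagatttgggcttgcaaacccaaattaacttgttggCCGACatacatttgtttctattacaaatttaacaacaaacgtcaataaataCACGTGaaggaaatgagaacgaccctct
RAB18: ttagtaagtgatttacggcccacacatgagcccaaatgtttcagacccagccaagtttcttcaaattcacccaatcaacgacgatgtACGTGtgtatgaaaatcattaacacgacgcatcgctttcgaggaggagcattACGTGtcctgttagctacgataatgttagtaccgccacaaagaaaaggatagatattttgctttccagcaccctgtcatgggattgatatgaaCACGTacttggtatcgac
COR15A held CCGAC at 2 places and ACGTG at 2 overlapping places that together read CACGTG, and RAB18 held ACGTG at 3 places. Over all 27402 tested protein-coding genes with such a window, 12% held CCGAC and 22.9% held ACGTG. Among the 29 genes of the list 27.6% held CCGAC and 55.2% held ACGTG. Of the genes called higher in importin123, 14.9% held CCGAC and 37.3% held ACGTG, and of those called lower 10.8% and 25.4%. A match describes letters in these windows and is not evidence of binding.

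Further members of the ABA list covered its synthesis, its signalling and its effectors. NCED3, which makes the committed cleavage in ABA synthesis, had normalised CPM of 17 and 24.8 in importin123, against 9.79 and 10 in lhp1-3 and 12.8 and 16.1 in Col-0 (log2 fold change 1.08 ± 0.17 (SE), adjusted p = 0.00185). CYP707A1, which breaks ABA down, had 15.8 and 19.9 in importin123, against 10.4 and 10.1 in lhp1-3 and 7.93 and 8.47 in Col-0 (log2 fold change 0.80 ± 0.13 (SE), adjusted p = 0.00067). Both the synthesis and the breakdown gene were thus higher in importin123. HAI2, a clade A PP2C phosphatase of ABA signalling, had 15.2 and 22 in importin123, against 6.45 and 6.33 in lhp1-3 and 3.08 and 3.04 in Col-0 (log2 fold change 1.54 ± 0.16 (SE), adjusted p = 9.2e-06), and its relatives ABI2, PP2CA, HAI1 and ABI1 were called higher as well, at log2 fold changes of 0.81, 0.80, 1.69 and 0.59. RD22, a dehydration-responsive gene, had 159 and 289 in importin123, against 30.5 and 38.3 in lhp1-3 and 121 and 139 in Col-0 (log2 fold change 2.7 ± 0.28 (SE), adjusted p = 0.000379). P5CS1, which makes proline, had 231 and 406 in importin123, against 117 and 111 in lhp1-3 and 137 and 177 in Col-0 (log2 fold change 1.48 ± 0.25 (SE), adjusted p = 0.00261). The member called lower was DREB2A, a factor of the drought and heat response, at 14.7 and 18.8 in importin123, against 36.3 and 29.2 in lhp1-3 and 52.6 and 59.8 in Col-0 (log2 fold change -0.97 ± 0.15 (SE), adjusted p = 0.000427). CBF1, CBF2 and CBF3, the cold factors that act on COR genes, did not pass, at 0.31, 0.83 and 0.32. RD29A and RD29B had the largest differences among members that did not pass, with RD29A at 68.5 and 198 in importin123 and 15.9 and 16.9 in lhp1-3 normalised CPM and RD29B at 69.3 and 162 in importin123 and 17.9 and 15.7 in lhp1-3 (adjusted p = 0.117 and 0.0648). In all 16 members called higher, importin123 replicate 2 lay above replicate 1. In the ABA, cold and drought list, the members called higher numbered 9 with lhp1-3 replicate 1 left out and 7 with lhp1-3 replicate 2 left out. COR15A and HAI1 did not pass when either lhp1-3 library was left out (adjusted p from 0.0887 to 0.14). NCED3 and P5CS1 did not pass when lhp1-3 replicate 2 was left out (adjusted p from 0.0563 to 0.068). PP2CA did not pass when either lhp1-3 library or importin123 replicate 2 was left out (adjusted p from 0.0749 to 0.129). ABI1 did not pass when either lhp1-3 library or importin123 replicate 2 was left out, under RLE scaling or under limma on log2(RPKM + 1) or log2(RPKM + 0.1) (adjusted p from 0.0512 to 0.351). DREB2A did not pass when importin123 replicate 1 was left out (adjusted p = 0.0519). Without importin123 replicate 2, the log2 fold change was 0.50 for PP2CA and 0.30 for ABI1.

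Many seed maturation genes were higher in importin123 than in lhp1-3. Late in seed development storage globulins and albumins fill protein bodies, oleosins coat oil bodies, and late embryogenesis abundant (LEA) proteins accumulate before drying, under the B3 factors ABI3, FUS3 and LEC2. Of the 27 members 11 were called higher and 0 lower (40.7% against 2.97% higher over all genes), with a list median of 1.22. The number lower was also 0 at an unadjusted p under 0.05 and under DESeq2. CRA1, a 12S globulin, had normalised CPM of 350.2 and 596 in importin123, against 23.2 and 22.6 in lhp1-3 and 259 and 304 in Col-0 (log2 fold change 4.37 ± 0.25 (SE), adjusted p = 4.83e-08). CRU3, another 12S globulin, had 166 and 348 in importin123, against 8.75 and 8.27 in lhp1-3 and 133 and 212 in Col-0 (log2 fold change 4.91 ± 0.51 (SE), adjusted p = 0.00779). OLEO1, the main seed oleosin, had 44 and 48.5 in importin123, against 5.58 and 6.03 in lhp1-3 and 27.4 and 30.1 in Col-0 (log2 fold change 3.0 ± 0.13 (SE), adjusted p = 1.87e-10). In these 3 genes both lhp1-3 values lay below both Col-0 values. OLEO2 had 45.2 and 43.2 in importin123, against 10.2 and 12.3 in lhp1-3 and 45.7 and 58.9 in Col-0 (log2 fold change 1.98 ± 0.15 (SE), adjusted p = 1.47e-07), and PER1, a seed peroxiredoxin, had 38.1 and 43.2 in importin123, against 12.4 and 10.5 in lhp1-3 and 33.3 and 44.5 in Col-0 (log2 fold change 1.83 ± 0.15 (SE), adjusted p = 8.91e-07). OLEO2 and PER1 lay near the Col-0 level in importin123 and below it in lhp1-3. HSD1, an oil body dehydrogenase, ALPHA-TIP, a seed vacuole aquaporin, and EM1, a LEA protein, were called higher at log2 fold changes of 1.99, 1.96 and 2.21. ABI3 was higher at 8.01 and 8 in importin123 and 5.49 and 5.19 in lhp1-3 normalised CPM (log2 fold change 0.58 ± 0.17 (SE), adjusted p = 0.0364). FUS3, LEC1 and LEC2 had 0.05, -0.05 and -0.24 and did not pass. Among the 2S albumin genes SESA3 was called higher at 1.19, while SESA1, SESA2, SESA4 and SESA5 did not pass, with estimates of 2.2, 1.77, 0.26 and 2.89. The summed RPKM of the 12 dry seed markers was 451 and 633 in importin123, against 50.6 and 49.8 in lhp1-3 and 209.7 and 267 in Col-0. Of these markers 6 were called higher and 0 lower, and their part in other results was not tested. In bulk RNA of whole seedlings, a smaller share of a tissue and less RNA per cell cannot be told apart. Near-identical coding stretches among storage protein genes can share reads, so the split between copies is uncertain. In the seed maturation list, the members called higher numbered 18 in the fit of the 4 mutant libraries or with either Col-0 library left out, 7 with lhp1-3 replicate 1 left out and 6 with lhp1-3 replicate 2 left out. CRU3 did not pass when either lhp1-3 library was left out (adjusted p from 0.0717 to 0.0861). EM1 did not pass when lhp1-3 replicate 2 was left out (adjusted p = 0.053). ABI3 did not pass when any 1 of the 4 mutant libraries was left out, with the replicate block or under limma on log2(RPKM + 1) or log2(RPKM + 0.1) (adjusted p from 0.0599 to 0.288). SESA3 did not pass when any 1 of the 4 mutant libraries was left out or under limma on log2(RPKM + 0.1) (adjusted p from 0.0593 to 0.214). ABI3 and SESA3 lay too close to the floor in at least 1 mutant for a fold without it.

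Iron genes parted in opposite directions. In low iron the group Ib bHLH factors BHLH38, BHLH39, BHLH100 and BHLH101 are induced and pair with FRU (also known as FIT) to switch on uptake, PYE and BTS tune the response, and ferritins store iron when it is plentiful. Of 32 members 13 were called higher in importin123 and 6 lower (40.6% and 18.8%, against 2.97% and 6.33% of all genes). BHLH38 had normalised CPM of 35.6 and 41 in importin123, against 2.18 and 2.47 in lhp1-3 and 1.37 and 1.01 in Col-0 (log2 fold change 4.04 ± 0.15 (SE), adjusted p = 7.04e-11). BHLH100 had 41 and 52.4 in importin123, against 1.8 and 2.26 in lhp1-3 and 0.645 and 0.934 in Col-0 (log2 fold change 4.53 ± 0.18 (SE), adjusted p = 1.46e-09). BHLH39, a neighbour and close copy of BHLH38, had 34.7 and 34.7 in importin123, against 2.43 and 2.59 in lhp1-3 and 1.97 and 1.13 in Col-0 (log2 fold change 3.79 ± 0.19 (SE), adjusted p = 4.17e-08). In lhp1-3 and Col-0 all 3 were at a few CPM, and importin123 stood more than 10-fold above both. BHLH101 had 24.9 and 28.2 in importin123, against 3.28 and 4.14 in lhp1-3 and 4.86 and 2.27 in Col-0 (log2 fold change 2.84 ± 0.39 (SE), adjusted p = 0.0234).

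To show these factor genes as sequence, the windows of 250 bases before the annotated start of BHLH38 (chr3:21085246-21085495, minus strand) and BHLH100 (chr2:17199455-17199704, minus strand) follow, with the palindrome CACGTG (a G-box, which bHLH proteins can bind) in capitals.
BHLH38: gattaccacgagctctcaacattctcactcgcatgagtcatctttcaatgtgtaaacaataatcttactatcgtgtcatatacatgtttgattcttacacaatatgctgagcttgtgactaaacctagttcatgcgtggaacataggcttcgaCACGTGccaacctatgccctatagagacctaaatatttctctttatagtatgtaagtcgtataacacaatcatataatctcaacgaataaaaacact
BHLH100: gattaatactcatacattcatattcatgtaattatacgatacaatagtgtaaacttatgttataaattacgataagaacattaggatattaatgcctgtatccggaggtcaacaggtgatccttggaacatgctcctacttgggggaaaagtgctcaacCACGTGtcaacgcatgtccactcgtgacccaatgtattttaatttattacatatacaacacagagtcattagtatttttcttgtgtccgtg
Each window held the motif at 1 place, 97 to 92 bases before the start in BHLH38 and 91 to 86 in BHLH100. CACGTG, which contains ACGTG on both strands, was found in 6.5% of the 27402 windows, in 14.2% of those of genes called higher and in 7.84% of those of genes called lower. In the iron list it was found in 6 of 32.

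The iron genes higher in importin123 went beyond the factors. FRO3, a mitochondrial ferric reductase, had normalised CPM of 85.1 and 99.8 in importin123, against 20.9 and 21.7 in lhp1-3 and 27.6 and 17.5 in Col-0 (log2 fold change 2.12 ± 0.19 (SE), adjusted p = 2.73e-05). NAS4, a nicotianamine synthase, had 33 and 31.6 in importin123, against 6.93 and 9.19 in lhp1-3 and 17.2 and 12.5 in Col-0 (log2 fold change 2.0 ± 0.17 (SE), adjusted p = 7.58e-06). BTS, an E3 ligase that restrains the response, had 243 and 289.9 in importin123, against 77.9 and 90.6 in lhp1-3 and 126 and 112 in Col-0 (log2 fold change 1.66 ± 0.17 (SE), adjusted p = 4.08e-06). OPT3, a transporter that loads iron into the phloem, ZIF1, a vacuolar transporter, and PYE, a bHLH repressor, were higher at 1.85, 1.43 and 1.1. Of 3 members without a symbol in the reference table, AT1G47395 and AT2G30766 were called higher, at 4.77 and 3.8, and AT1G47400 did not pass at 4.63 (adjusted p = 0.0767). Genes of iron storage and iron-sulfur handling went the other way. NEET, an iron-sulfur protein of the chloroplast and mitochondrion, had 3.5 and 3.34 in importin123, against 40.9 and 44 in lhp1-3 and 92.7 and 107 in Col-0 (log2 fold change -3.63 ± 0.15 (SE), adjusted p = 7.46e-11). YSL1, a transporter of iron-nicotianamine, had 7.12 and 7.09 in importin123, against 41.9 and 36.5 in lhp1-3 and 47.3 and 52.4 in Col-0 (log2 fold change -2.46 ± 0.13 (SE), adjusted p = 1.91e-09). FER4, a ferritin, had 8.98 and 10 in importin123, against 39.4 and 30.7 in lhp1-3 and 65.9 and 84 in Col-0 (log2 fold change -1.89 ± 0.16 (SE), adjusted p = 8.91e-07). In these 3 genes importin123 was lowest, lhp1-3 intermediate and Col-0 highest. FER1 and FER3 were lower at -1.5 and -0.73, and FER1 is overlapped over 1334 bases by the opposite-strand gene AT5G01595, whose reads cannot be told from its own without strand. FER2, the seed ferritin, was higher at 0.67. FRU was called lower at -0.71, and the root uptake genes IRT1 and FRO2 did not pass, both at -0.21. BHLH101 did not pass when either lhp1-3 library was left out or with the replicate block (adjusted p from 0.0521 to 0.297). FER1 did not pass when either importin123 library was left out (adjusted p from 0.0729 to 0.155). FER3 did not pass when lhp1-3 replicate 1 was left out (adjusted p = 0.0839). FER2 did not pass when lhp1-3 replicate 1 or importin123 replicate 1 was left out (adjusted p from 0.101 to 0.156). FRU did not pass when any 1 of the 4 mutant libraries was left out or under limma on log2(RPKM + 1) or log2(RPKM + 0.1) (adjusted p from 0.0597 to 0.31). FER2 had a log2 fold change of 1.14 and FRU one of -1.29 with the floor taken off. BHLH38, BHLH39, BHLH100 and AT2G30766 lay too close to the floor in at least 1 mutant for a fold without it.

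Some copper and sulfur genes also differed. CSD2, the chloroplast copper/zinc superoxide dismutase, had normalised CPM of 17.2 and 15.9 in importin123, against 50.3 and 53.4 in lhp1-3 and 166 and 139 in Col-0 (log2 fold change -1.65 ± 0.15 (SE), adjusted p = 8.36e-07), and CCS, its copper chaperone, had 11.1 and 10.2 in importin123, against 20.7 and 21.6 in lhp1-3 and 50.3 and 41.7 in Col-0 (log2 fold change -0.99 ± 0.13 (SE), adjusted p = 6.04e-05). The copper uptake transporter COPT2 was higher at 15.4 and 16.3 in importin123, against 6.82 and 8.57 in lhp1-3 and 14.1 and 15.7 in Col-0 (log2 fold change 1.04 ± 0.14 (SE), adjusted p = 5.6e-05). Of the 13 copper genes 2 were higher and 3 lower (15.4% and 23.1%, against 2.97% and 6.33% of all tested nuclear genes). The iron superoxide dismutase FSD1 was lower too, at -0.79. In the 14 sulfur genes 4 were higher and 2 lower (28.6% and 14.3%). LSU1 and SDI1, which mark sulfur deficiency, had log2 fold changes of 2.11 and 1.95, whereas the sulfate-reducing enzyme gene APR2 had -0.88. In the copper list, the members called higher numbered 1 with either lhp1-3 library left out. In the sulfur list, the members called lower numbered 1 with Col-0 replicate 1, importin123 replicate 1 or either lhp1-3 library left out. FSD1 did not pass when either lhp1-3 library or importin123 replicate 1 was left out or under limma on log2(RPKM + 1) or log2(RPKM + 0.1) (adjusted p from 0.0578 to 0.3).

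LOX2, AOS, AOC1 and AOC2, of the chloroplast steps of jasmonate synthesis, were higher in importin123. Jasmonate is made in the chloroplast from linolenic acid by lipoxygenase, allene oxide synthase and allene oxide cyclase, and its conjugate with isoleucine leads to the breakdown of JAZ repressors. Of 27 members of the jasmonate list 6 were called higher and 2 lower (22.2% and 7.41%, against 2.97% and 6.33% of all tested nuclear genes), so the lower share was near the background. The list median was 0.26. AOC2, an allene oxide cyclase, had normalised CPM of 284 and 430.2 in importin123, against 22.3 and 28.6 in lhp1-3 and 132 and 133 in Col-0 (log2 fold change 3.81 ± 0.22 (SE), adjusted p = 2.69e-08). AOS, the allene oxide synthase, had 203 and 254 in importin123, against 49.3 and 53.9 in lhp1-3 and 200.1 and 269 in Col-0 (log2 fold change 2.14 ± 0.19 (SE), adjusted p = 7.62e-07). LOX2, a 13-lipoxygenase, had 524 and 766 in importin123, against 151 and 183 in lhp1-3 and 250.3 and 375 in Col-0 (log2 fold change 1.95 ± 0.24 (SE), adjusted p = 8.64e-05). AOS in importin123 overlapped Col-0 while lhp1-3 lay below both, and LOX2 and AOC2 were above Col-0 in importin123 and below it in lhp1-3. AOC1, which shares long stretches with AOC2, was higher at 2.5, and CYP94B3, which oxidises the active conjugate, at 1.12. CLH1 was called higher at 0.81. The other genes of synthesis and modification, LOX3, LOX4, AOC3, AOC4, OPR3, OPCL1, JAR1 and JMT, did not pass, with estimates from -0.20 for JAR1 to 0.56 for OPCL1. VSP1, a storage protein gene of the jasmonate response, ran the other way at 32.2 and 36.5 in importin123, against 134 and 99.4 in lhp1-3 and 89 and 87 in Col-0 (log2 fold change -1.77 ± 0.16 (SE), adjusted p = 1.17e-06), as did the repressor gene JAZ9 at -1.14. MYC2, the main factor of the response, and its receptor COI1 did not pass, at 0.49 and -0.21. In the jasmonate list, the members called higher numbered 10 in the fit of the 4 mutant libraries or with either Col-0 library left out. CLH1 did not pass when either lhp1-3 library or importin123 replicate 2 was left out (adjusted p from 0.0961 to 0.16). Without importin123 replicate 2, the log2 fold change was 0.45 for CLH1.

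Late steps of anthocyanin synthesis were higher in importin123, while several early phenylpropanoid and flavonol steps were lower. Of 26 members 8 were called higher and 4 lower (30.8% and 15.4%, against 2.97% and 6.33% of all tested nuclear genes). DFR, dihydroflavonol reductase, the first enzyme of the anthocyanin branch, had normalised CPM of 84.3 and 77.9 in importin123, against 7.19 and 7.1 in lhp1-3 and 17 and 14.9 in Col-0 (log2 fold change 3.5 ± 0.14 (SE), adjusted p = 7.04e-11). UF3GT, a glycosyltransferase of anthocyanin, had 46 and 38 in importin123, against 4.75 and 5 in lhp1-3 and 10.6 and 8.26 in Col-0 (log2 fold change 3.11 ± 0.15 (SE), adjusted p = 6.53e-10). LDOX, the next oxidase after DFR, had 60.9 and 55.5 in importin123, against 6.18 and 7.85 in lhp1-3 and 15.4 and 12.4 in Col-0 (log2 fold change 3.05 ± 0.15 (SE), adjusted p = 1.39e-09). In each of the 3 genes importin123 stood above Col-0 and lhp1-3 below it. TT19, a glutathione transferase needed to store anthocyanin, and 5MAT, a malonyltransferase, had 2.99 and 2.5. PAP1, the MYB factor of this branch, had 7.16 and 6.91 in importin123 and 3.21 and 3.16 in lhp1-3 normalised CPM (log2 fold change 1.14 ± 0.19 (SE), adjusted p = 0.000595). The lower members were 4CL3 at -0.95, FLS1, flavonol synthase, at -0.87, PAL2 at -0.72 and CHI at -0.70. CHS, the entry enzyme of the flavonoid path, did not pass at -0.62. In all 8 members called higher importin123 replicate 1 lay above replicate 2, the reverse of the ABA genes. In the flavonoid and anthocyanin list, the members called lower numbered 1 with either lhp1-3 library left out and 0 with importin123 replicate 1 left out. 4CL3 did not pass when importin123 replicate 1 was left out (adjusted p = 0.0982). FLS1 did not pass when any 1 of the 4 mutant libraries was left out or under limma on log2(RPKM + 1) or log2(RPKM + 0.1) (adjusted p from 0.0941 to 0.293). PAL2 did not pass when either lhp1-3 library or importin123 replicate 1 was left out or under limma on log2(RPKM + 0.1) (adjusted p from 0.0553 to 0.221). CHI did not pass when any 1 of the 4 mutant libraries was left out, after the floor was taken off or under limma on log2(RPKM + 1) or log2(RPKM + 0.1) (adjusted p from 0.0652 to 0.235). PAP1 lay too close to the floor in at least 1 mutant for a fold without it.

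Of 17 antenna genes tested 13 were higher in importin123. The LHCB and LHCA proteins bind chlorophyll around the photosystems, while the RBCS genes encode the small subunit of Rubisco. Of the 31 photosynthesis genes 13 were called higher and 3 lower (41.9% and 9.68%, against 2.97% and 6.33% of all tested nuclear genes), so the lower share was near the background. The list median was 0.06, and all 13 higher members were LHCB or LHCA genes. Each of these 13 had importin123 replicate 2 above importin123 replicate 1. LHCB1.5, an antenna gene of photosystem II, had normalised CPM of 1439 and 2195 in importin123, against 178 and 256 in lhp1-3 and 1112 and 1009 in Col-0 (log2 fold change 3.07 ± 0.26 (SE), adjusted p = 8.29e-07). It is overlapped over 1045 bases by the opposite-strand gene AT2G08665, so its reads cannot be told apart from that gene's. LHCA4, of the photosystem I antenna, had 449.8 and 683 in importin123, against 144 and 162 in lhp1-3 and 355 and 431 in Col-0 (log2 fold change 1.89 ± 0.22 (SE), adjusted p = 1.8e-05). LHCB3 had 162 and 209 in importin123, against 43.4 and 55 in lhp1-3 and 121 and 153 in Col-0 (log2 fold change 1.92 ± 0.19 (SE), adjusted p = 3.63e-06). In LHCA4 and LHCB3 importin123 was above Col-0 and lhp1-3 below it. LHCB1.2 had 497 and 645 in importin123, against 77.1 and 114 in lhp1-3 and 109.5 and 128 in Col-0 (log2 fold change 2.58 ± 0.22 (SE), adjusted p = 9.39e-07). The LHCB1 genes are near-identical copies, so their shares of reads are uncertain. RBCS3B, the most abundant gene called lower, had 3853 and 4711 in importin123, against 7856 and 9336 in lhp1-3 and 15847 and 15815 in Col-0 (log2 fold change -1.01 ± 0.26 (SE), adjusted p = 0.0203), and PSAN, a photosystem I subunit, had -0.98. RCA, Rubisco activase, did not pass at -0.77. Summed RPKM over the 19 green leaf markers was 11044 and 14836 in importin123, 8737 and 10734 in lhp1-3 and 15334 and 16173 in Col-0. Replicate 2 was the higher library in each genotype. In the photosynthesis list, the members called lower numbered 7 under DESeq2 or with importin123 replicate 2 left out, 1 with lhp1-3 replicate 1 left out and 0 with lhp1-3 replicate 2 or importin123 replicate 1 left out. RBCS3B did not pass when either lhp1-3 library or importin123 replicate 1 was left out or under limma on log2(RPKM + 1) (adjusted p from 0.0503 to 0.226). PSAN did not pass when lhp1-3 replicate 2 or importin123 replicate 1 was left out (adjusted p from 0.0918 to 0.122). Without importin123 replicate 1, the log2 fold change was -0.64 for PSAN.

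Some clock and light-growth genes differed at the shared collection time. Circadian genes peak at set hours, so a difference at ZT12 can be of level or of phase, which cannot be told apart at 1 time. Of 25 members 7 were called higher and 3 lower (28% and 12%, against 2.97% and 6.33% of all tested nuclear genes). PIF4, a bHLH factor of growth in shade and warmth, had normalised CPM of 16.5 and 21 in importin123, against 4.64 and 4.27 in lhp1-3 and 4.2 and 4.03 in Col-0 (log2 fold change 2.07 ± 0.15 (SE), adjusted p = 7.12e-08). PIF5, its close relative, had 19.5 and 22.5 in importin123, against 6.67 and 6.66 in lhp1-3 and 8.77 and 10.4 in Col-0 (log2 fold change 1.66 ± 0.13 (SE), adjusted p = 2.72e-07). GI, GIGANTEA, had 65.9 and 77.9 in importin123, against 26.9 and 24.7 in lhp1-3 and 39 and 34.2 in Col-0 (log2 fold change 1.48 ± 0.14 (SE), adjusted p = 1.27e-06). In PIF4, PIF5 and GI importin123 was above both other genotypes, and lhp1-3 was below Col-0 in PIF5 and GI. PRR7 and LNK1 were higher at 1.69 and 1.3. RVE1, RVE4 and RVE8, MYB-like factors that peak near dawn, were lower at -0.78, -0.58 and -0.56. CCA1, LHY and TOC1 did not pass, at 0.33, -0.35 and -0.09. In the clock list, the members called lower numbered 1 with importin123 replicate 1 or either lhp1-3 library left out. RVE4 did not pass when either lhp1-3 library or importin123 replicate 1 was left out or under limma on log2(RPKM + 0.1) (adjusted p from 0.0537 to 0.233). RVE8 did not pass when any 1 of the 4 mutant libraries was left out or under limma on log2(RPKM + 1) or log2(RPKM + 0.1) (adjusted p from 0.0892 to 0.169). PIF5 had a log2 fold change of 2.72, LNK1 one of 2.41 and RVE8 one of -1.07 with the floor taken off. Without importin123 replicate 1, the log2 fold change was -0.35 for RVE4. Under limma on log2(RPKM + 1), the log2 fold change was -0.36 for RVE8. PIF4 and PRR7 lay too close to the floor in at least 1 mutant for a fold without it.

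Many floral MADS-box genes were lower in importin123 than in lhp1-3. These genes specify floral organs, are marked by H3K27me3 in wild type leaves and are known to be derepressed in lhp1 mutants. Of 21 members 9 were called lower and 0 higher (42.9% against 6.33% lower over all genes), with a list median of -0.57. The number higher was also 0 at an unadjusted p under 0.05 and under DESeq2. SEP3, an E class gene, had normalised CPM of 3.98 and 3.16 in importin123, against 44.1 and 45.6 in lhp1-3 and 1.35 and 2.77 in Col-0 (log2 fold change -3.65 ± 0.31 (SE), adjusted p = 0.00172). SEP1, another E class gene, had 3.45 and 3.24 in importin123, against 31.6 and 28.8 in lhp1-3 and 1.67 and 1.35 in Col-0 (log2 fold change -3.17 ± 0.14 (SE), adjusted p = 1.87e-10). AP3, a B class gene, had 3.77 and 2.69 in importin123, against 10.6 and 9.52 in lhp1-3 and 0.645 and 0.614 in Col-0 (log2 fold change -1.64 ± 0.20 (SE), adjusted p = 3.12e-05). In SEP3, SEP1 and AP3 both lhp1-3 values stood far above both other genotypes, and importin123 lay close to the floor. SEP1 is overlapped over 449 bases by the opposite-strand gene AT5G02455. SEP4 had 5.77 and 6.18 in importin123, against 16.2 and 15.8 in lhp1-3 and 8.02 and 9.33 in Col-0 (log2 fold change -1.42 ± 0.13 (SE), adjusted p = 1.33e-06), and AGL24, a promoter of flowering, had 6.35 and 5.38 in importin123, against 15.4 and 15 in lhp1-3 and 6.12 and 8.15 in Col-0 (log2 fold change -1.37 ± 0.15 (SE), adjusted p = 1.05e-05). SEP2, AG, PI and FUL were lower at -1.41, -0.86, -0.88 and -1.15. AP1 and SOC1 did not pass, at -0.33 and -0.57. SEP2 did not pass when importin123 replicate 1 was left out (adjusted p = 0.0535). AG did not pass under limma on log2(RPKM + 1) or log2(RPKM + 0.1) (adjusted p from 0.0931 to 0.179). PI did not pass under limma on log2(RPKM + 0.1) (adjusted p = 0.0673). FUL did not pass when any 1 of the 4 mutant libraries was left out, with the replicate block or under limma on log2(RPKM + 0.1) (adjusted p from 0.0774 to 0.207). SEP4 had a log2 fold change of -2.31 and PI one of -1.42 with the floor taken off. Under limma on log2(RPKM + 1), the log2 fold change was -0.93 for SEP2 and -0.53 for AG. SEP3, SEP1, AP3, AGL24, SEP2, AG and FUL lay too close to the floor in at least 1 mutant for a fold without it.

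FT, the mobile signal of flowering and another LHP1 target, was the largest difference among 33 flowering time genes. It had normalised CPM of 5.64 and 7.43 in importin123, against 29.8 and 23.6 in lhp1-3 and 9.17 and 8.12 in Col-0 (log2 fold change -2.03 ± 0.16 (SE), adjusted p = 5.7e-07), so both lhp1-3 values stood above all others and importin123 stood below Col-0. In the list 5 genes were higher and 3 lower (15.2% and 9.09%, against 2.97% and 6.33% of all tested nuclear genes). TOE1, a floral repressor of the AP2 family, had 51.2 and 55.5 in importin123, against 26.3 and 31.3 in lhp1-3 and 83.9 and 81.6 in Col-0 (log2 fold change 0.89 ± 0.14 (SE), adjusted p = 0.000301). CDF3, a DOF factor, had 0.87 and MFT, a relative of FT, had 0.90. AP2 and SPL3 were lower at -0.76 and -1.15, and SPL3 is overlapped over 1046 bases by the opposite-strand gene AT2G33815. FLC, the vernalisation repressor, did not pass at -0.52. Of the 13 floral organ regulators 3 were lower (23.1%) and 0 higher, also at an unadjusted p under 0.05 and under DESeq2, led by ALC, a bHLH gene of fruit opening, at -1.44, although ALC is overlapped over 1326 bases by the opposite-strand gene AT5G67100. NAP and SPT had -1.01 and -0.60. Of 22 meristem and polarity genes 1 was higher, YAB5 at 1.31, and 4 were lower, with RPL at -1.27, LOB at -0.90, BOP2 at -0.67 and KNAT6 at -0.52. Among 29 Polycomb and trithorax genes 1 was higher (3.45%), LHP1 itself, and 1 was lower (3.45%), EMF1 at -0.56. The higher share was near that of all tested nuclear genes, and the lower share was under it. The H3K27 methyltransferase genes CLF and SWN did not pass, at 0.23 and -0.13. In the flowering time list, the members called higher numbered 3 with importin123 replicate 2 or either lhp1-3 library left out. In the flowering time list, the members called lower numbered 5 in the fit of the 4 mutant libraries or with either Col-0 library left out. In the floral organ regulators list, the members called lower numbered 1 with lhp1-3 replicate 1 or either importin123 library left out. In the meristem and organ polarity list, the members called lower numbered 1 with importin123 replicate 1 left out. NAP and EMF1 did not pass when lhp1-3 replicate 1 or either importin123 library was left out or under limma on log2(RPKM + 1) or log2(RPKM + 0.1) (adjusted p from 0.0581 to 0.6). SPT did not pass when any 1 of the 4 mutant libraries was left out, with the replicate block or under limma on log2(RPKM + 1) or log2(RPKM + 0.1) (adjusted p from 0.0844 to 0.463). LOB did not pass when importin123 replicate 1 was left out (adjusted p = 0.0583). BOP2 did not pass when lhp1-3 replicate 2 or importin123 replicate 1 was left out (adjusted p from 0.0593 to 0.0901). KNAT6 did not pass when any 1 of the 4 mutant libraries was left out or under limma on log2(RPKM + 1) or log2(RPKM + 0.1) (adjusted p from 0.0891 to 0.252). CDF3 had a log2 fold change of 1.31, MFT one of 1.45, SPL3 one of -1.94, SPT one of -0.96 and LOB one of -1.79 with the floor taken off. Without lhp1-3 replicate 1, the log2 fold change was -0.58 for NAP and -0.33 for EMF1. Under limma on log2(RPKM + 1), the log2 fold change was -0.32 for KNAT6. YAB5 and KNAT6 lay too close to the floor in at least 1 mutant for a fold without it.

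Most of the glucosinolate genes were lower in importin123. These sulfur-rich defence compounds of the Brassicaceae are built from methionine, chain-lengthened by MAM enzymes, or from tryptophan, under MYB factors. Of 24 members 13 were called lower and 1 higher (54.2% and 4.17%, against 6.33% and 2.97% of all tested nuclear genes). The list median was -0.59, and the higher share was near the background. MAM1, a chain-lengthening synthase, had normalised CPM of 20.8 and 37.1 in importin123, against 141 and 131 in lhp1-3 and 342 and 364 in Col-0 (log2 fold change -2.23 ± 0.23 (SE), adjusted p = 5.41e-05). CYP79F1, which takes up the lengthened methionine, had 10.9 and 20.5 in importin123, against 96.1 and 86.5 in lhp1-3 and 195 and 221 in Col-0 (log2 fold change -2.54 ± 0.27 (SE), adjusted p = 0.000533). BCAT4, an aminotransferase at the start of lengthening, had 26.9 and 35.4 in importin123, against 87.1 and 74.4 in lhp1-3 and 179 and 238 in Col-0 (log2 fold change -1.37 ± 0.18 (SE), adjusted p = 0.000106). In each of the 3 genes importin123 was lowest, lhp1-3 intermediate and Col-0 highest, with no overlap. BAT5, a transporter of the path, and MYB29, a factor of the aliphatic branch, had -1.19 and -1.19. In the tryptophan branch CYP79B2 had -0.78 and the factor MYB34 -0.50. MAM3, the synthase of longer chains and a neighbour of MAM1, was the gene called higher, at 44.8 and 37.6 in importin123, against 18 and 14.4 in lhp1-3 and 28.5 and 39 in Col-0 (log2 fold change 1.35 ± 0.17 (SE), adjusted p = 0.000169). In the glucosinolate list, the members called lower numbered 6 with lhp1-3 replicate 1 left out, 8 with lhp1-3 replicate 2 left out and 7 with importin123 replicate 1 left out. CYP79B2 did not pass when any 1 of the 4 mutant libraries was left out (adjusted p from 0.0596 to 0.155). MYB34 did not pass when either lhp1-3 library or importin123 replicate 1 was left out or under limma on log2(RPKM + 0.1) (adjusted p from 0.0526 to 0.356). MYB29 had a log2 fold change of -2.11 with the floor taken off.

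Many genes of darkness, sugar starvation and leaf ageing were lower in importin123. They are induced when carbon runs short and include chlorophyll breakdown enzymes and class II trehalose phosphate synthases. Of 22 members 11 were called lower and 1 higher (50% and 4.55%, against 6.33% and 2.97% of all tested nuclear genes). The list median was -0.48, and the higher share was near the background. SEN1, an early marker of darkness, had normalised CPM of 4.69 and 5.37 in importin123, against 26.9 and 22.4 in lhp1-3 and 89.1 and 111 in Col-0 (log2 fold change -2.29 ± 0.15 (SE), adjusted p = 3.78e-08). DIN10, a raffinose synthase family gene of the dark response, had 68.1 and 93 in importin123, against 357 and 363 in lhp1-3 and 799 and 679.9 in Col-0 (log2 fold change -2.16 ± 0.20 (SE), adjusted p = 1.6e-06). NYC1, chlorophyll b reductase, had 55.1 and 84 in importin123, against 268 and 255 in lhp1-3 and 439 and 394 in Col-0 (log2 fold change -1.91 ± 0.20 (SE), adjusted p = 6.97e-06). Again importin123 was lowest, then lhp1-3, then Col-0. BZIP1 and TPS11 were lower at -1.22 and -0.97. The gene called higher was DIN2, a beta-glucosidase, at 1.09. ORE1 and SAG12, which mark later ageing, did not pass, at -0.09 and 0.16. In the dark and senescence list, the members called higher numbered 2 under DESeq2. In the dark and senescence list, the members called lower numbered 5 with lhp1-3 replicate 1 or importin123 replicate 1 left out and 6 with lhp1-3 replicate 2 left out. DIN2 did not pass when either lhp1-3 library or importin123 replicate 2 was left out, under RLE scaling, in the fit of nuclear genes only, with the replicate block or under limma on log2(RPKM + 0.1) (adjusted p from 0.0605 to 0.291). DIN2 lay too close to the floor in at least 1 mutant for a fold without it.

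Many genes of mitochondrial retrograde signalling and detoxification were lower in importin123 as well. When mitochondrial electron transport is blocked, membrane-bound NAC factors are released and raise AOX1A and detoxification enzymes. Of 16 members 8 were called lower and 0 higher (50% lower, against 6.33% of all tested nuclear genes), with a list median of -0.37. At an unadjusted p under 0.05 the number higher was 2, and under DESeq2 it was 0. UGT74E2, a glucosyltransferase for indole-3-butyric acid, had normalised CPM of 6.98 and 5.71 in importin123, against 88.7 and 81.5 in lhp1-3 and 74.7 and 69.8 in Col-0 (log2 fold change -3.75 ± 0.15 (SE), adjusted p = 7.46e-11). AOX1A, alternative oxidase, had 43.7 and 49 in importin123, against 94.2 and 96.9 in lhp1-3 and 196 and 165 in Col-0 (log2 fold change -1.04 ± 0.15 (SE), adjusted p = 0.000215). CYP81D8, a cytochrome P450, had 9.38 and 8.57 in importin123, against 24 and 21.7 in lhp1-3 and 28.3 and 36.6 in Col-0 (log2 fold change -1.35 ± 0.14 (SE), adjusted p = 4.44e-06). UGT74E2 in lhp1-3 was slightly above Col-0, while AOX1A and CYP81D8 in lhp1-3 were below it. GSTU1, a glutathione transferase, had 14.4 and 16.5 in importin123, against 39.3 and 32.8 in lhp1-3 and 40.6 and 39.2 in Col-0 (log2 fold change -1.22 ± 0.13 (SE), adjusted p = 7.77e-06). GSTU24, a copy-rich family member, had -0.88, DTX1, an efflux carrier, -0.65 and NAC13 -0.47. NAC017 did not pass at -0.14. In the mitochondrial retrograde and detoxification list, the members called higher numbered 2 in the fit of the 4 mutant libraries or with either Col-0 library left out and 1 with lhp1-3 replicate 1 left out. In the mitochondrial retrograde and detoxification list, the members called lower numbered 5 with importin123 replicate 1 left out. DTX1 did not pass when lhp1-3 replicate 1 or importin123 replicate 1 was left out (adjusted p from 0.061 to 0.0804). NAC13 did not pass when any 1 of the 4 mutant libraries was left out, under DESeq2, in the fit of nuclear genes only, with the replicate block or under limma on log2(RPKM + 1) or log2(RPKM + 0.1) (adjusted p from 0.0517 to 0.474). Without importin123 replicate 1, the log2 fold change was -0.28 for NAC13.

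The string CTTGNNNNNCA is part of the element tied to these NAC factors. A match to it need not be a match to the whole element. Windows of 250 bases are shown for CYP81D8 (chr4:17571744-17571993, minus strand) and GSTU1 (chr2:12632539-12632788, minus strand), chosen because they were called lower and hold this string. Capitals mark the string on either strand.
CYP81D8: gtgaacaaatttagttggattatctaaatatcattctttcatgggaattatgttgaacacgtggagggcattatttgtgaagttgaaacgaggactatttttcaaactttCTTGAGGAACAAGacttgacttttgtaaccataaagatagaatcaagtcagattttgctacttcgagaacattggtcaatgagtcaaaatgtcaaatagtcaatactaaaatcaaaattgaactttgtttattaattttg
GSTU1: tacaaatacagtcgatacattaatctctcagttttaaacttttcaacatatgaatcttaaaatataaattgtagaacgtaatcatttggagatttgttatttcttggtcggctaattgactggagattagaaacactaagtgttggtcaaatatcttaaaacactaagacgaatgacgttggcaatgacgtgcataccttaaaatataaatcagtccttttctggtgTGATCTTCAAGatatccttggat
CYP81D8 held the string on both strands at overlapping positions, and GSTU1 held it on the strand opposite to the gene, 23 to 13 bases before the start. It was in 6 of the 16 windows of the list (37.5%), in 7.97% of all 27402 windows, in 9.78% of those of genes called higher and in 7.53% of those of genes called lower. UGT74E2 and AOX1A held none in these 250 bases.

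The 12 largest rises and the 12 largest falls, taken among genes with a symbol, an adjusted p under 0.05, no overlap between the mutants and a mean RPKM of at least 5 in the higher mutant, included many genes of the groups above. The rises outside those already described were LURP1, which responds to downy mildew, LTP4, a lipid transfer protein, and M17, a LEA gene. LURP1 had normalised CPM of 40.2 and 69.5 in importin123, against 3.5 and 3.63 in lhp1-3 and 5.05 and 10.1 in Col-0 (log2 fold change 3.94 ± 0.54 (SE), adjusted p = 0.039). LTP4 had 18.6 and 41 in importin123, against 1.97 and 2.19 in lhp1-3 and 0.676 and 0.387 in Col-0 (log2 fold change 3.85 ± 0.54 (SE), adjusted p = 0.0386). M17 had 143 and 139 in importin123, against 11.3 and 16.9 in lhp1-3 and 48.2 and 90.6 in Col-0 (log2 fold change 3.32 ± 0.39 (SE), adjusted p = 0.00818). LURP1 and M17 were lowest in lhp1-3 and LTP4 in Col-0, and importin123 was highest in all 3. Of the falls, CYP81D11, a stress-induced cytochrome P450, had 9.89 and 8.16 in importin123, against 135 and 122 in lhp1-3 and 278 and 280.3 in Col-0 (log2 fold change -3.83 ± 0.18 (SE), adjusted p = 3.38e-10). NIT4, a nitrilase that acts on beta-cyanoalanine, had 6.43 and 6.37 in importin123, against 45.3 and 42.8 in lhp1-3 and 69.8 and 75 in Col-0 (log2 fold change -2.78 ± 0.13 (SE), adjusted p = 4.13e-10). ZAT7, a zinc finger factor, had 4.01 and 3.39 in importin123, against 28.2 and 31.9 in lhp1-3 and 30 and 36.7 in Col-0 (log2 fold change -3.02 ± 0.15 (SE), adjusted p = 5.79e-10). These 3 had near-equal replicates in importin123, all well below lhp1-3. XTH6, a cell wall xyloglucan enzyme, had 4.78 and 6.72 in importin123, against 35.4 and 40.4 in lhp1-3 and 47.9 and 70.2 in Col-0 (log2 fold change -2.72 ± 0.23 (SE), adjusted p = 9.6e-05). GRP3S, a glycine-rich protein, had 23.5 and 27.8 in importin123, against 143 and 164 in lhp1-3 and 516 and 632 in Col-0 (log2 fold change -2.58 ± 0.19 (SE), adjusted p = 1e-07). UGT75B1, a glucosyltransferase, had 30.3 and 38.2 in importin123, against 215 and 209 in lhp1-3 and 292 and 290.0 in Col-0 (log2 fold change -2.63 ± 0.18 (SE), adjusted p = 3.31e-08), and the opposite-strand gene AT1G05562 overlaps it over 2136 bases. GRP3S and UGT75B1 were again lowest in importin123 and highest in Col-0. MIR5026 had -3.13, but it lies on the same strand within AT4G13495, and these counts are of polyadenylated RNA over the span, not of a mature miRNA. LURP1 did not pass when either lhp1-3 library was left out or under RLE scaling (adjusted p from 0.0515 to 0.384). LTP4 did not pass when either Col-0 library or either lhp1-3 library was left out, under RLE scaling or in the fit of nuclear genes only (adjusted p from 0.0551 to 0.437). M17 did not pass when either importin123 library was left out (adjusted p from 0.0557 to 0.0915). LURP1 lay too close to the floor in at least 1 mutant for a fold without it.

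**Figure D2:**
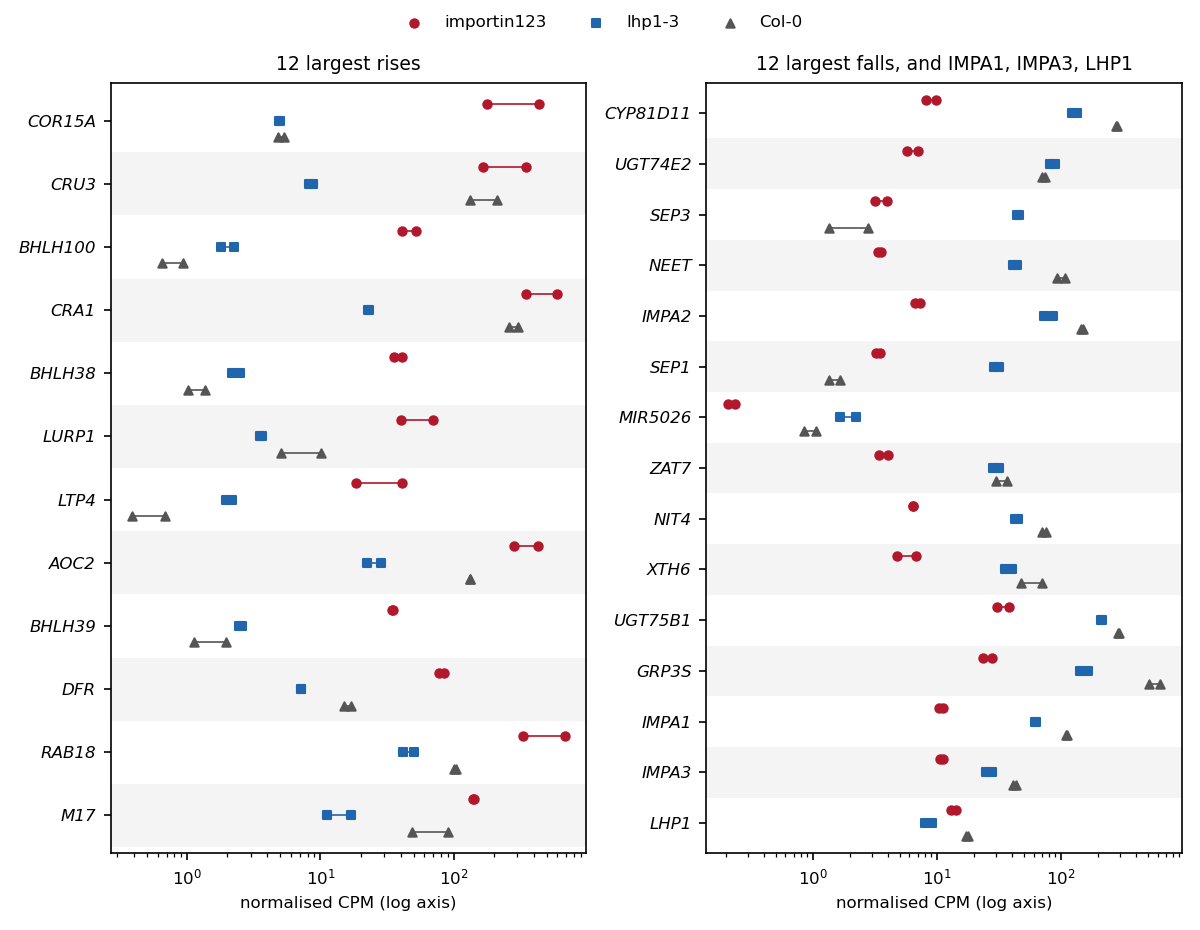
Normalised CPM in every library, on a log axis, for the 12 largest rises (left) and for the 12 largest falls with IMPA1, IMPA3 and LHP1 (right), with importin123 in red, lhp1-3 in blue and Col-0 in grey, and a line joining the 2 replicates. The importin123 points do not overlap the lhp1-3 points in any gene shown, and the COR15A values are 176 and 437 in importin123 and 4.94 and 4.85 in lhp1-3.

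Among the most abundant genes called, LHCB1.3, LHCB1.5, GRP7 and ECS1 were higher. ECS1 had normalised CPM of 513 and 764 in importin123, against 132 and 181 in lhp1-3 and 596 and 669 in Col-0 (log2 fold change 2.03 ± 0.23 (SE), adjusted p = 2.05e-05). GRP7, an RNA-binding protein under the clock, had 729 and 812 in importin123, against 437 and 448 in lhp1-3 and 942 and 995 in Col-0 (log2 fold change 0.80 ± 0.19 (SE), adjusted p = 0.0123). LHCB1.3 had 1825 and 2589 in importin123, against 779.6 and 1135 in lhp1-3 and 2044 and 2646 in Col-0 (log2 fold change 1.21 ± 0.26 (SE), adjusted p = 0.0055). The abundant genes called lower were RBCS3B, DR4, GLDP1 and CA1. GLDP1, the P subunit of glycine decarboxylase in photorespiration, had 1864 and 2496 in importin123, against 4125 and 4641 in lhp1-3 and 9486 and 9682 in Col-0 (log2 fold change -1.01 ± 0.25 (SE), adjusted p = 0.0156). CA1, a chloroplast carbonic anhydrase, had 1607 and 2194 in importin123, against 3323 and 3997 in lhp1-3 and 8316 and 7815 in Col-0 (log2 fold change -0.94 ± 0.25 (SE), adjusted p = 0.0234). DR4, a drought-repressed gene, had 579 and 523 in importin123, against 956 and 994 in lhp1-3 and 1199.8 and 1122 in Col-0 (log2 fold change -0.82 ± 0.20 (SE), adjusted p = 0.012). The abundant genes called lower were all highest in Col-0. GRP7 and DR4 did not pass when either lhp1-3 library was left out (adjusted p from 0.112 to 0.183). LHCB1.3 did not pass when lhp1-3 replicate 1 or importin123 replicate 2 was left out (adjusted p from 0.071 to 0.137). GLDP1 and CA1 did not pass when either lhp1-3 library or importin123 replicate 1 was left out (adjusted p from 0.0883 to 0.249).

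Smaller groups held a few calls each, beside 2.97% higher and 6.33% lower over all tested nuclear genes. Of 18 nitrate and ammonium genes 4 were lower and 1 higher (22.2% and 5.56%), with AMT1;2, an ammonium transporter, at 26.4 and 24.9 in importin123, against 80.6 and 85.7 in lhp1-3 and 149 and 168 in Col-0 (log2 fold change -1.7 ± 0.15 (SE), adjusted p = 6.32e-07), and NRT1.1, the nitrate transceptor, higher at 0.71. Of 15 phosphate genes 3 were lower and 1 higher (20% and 6.67%), with the sensor gene SPX1 at -0.96 and PHO1;H1, a phosphate exporter, higher at 0.59. The single higher call in each of these lists is a share near the background. Of 21 heat shock genes 5 were lower (23.8%) and 0 higher, with HSP90.1 at -1.09, HSP101 at -0.88, MBF1C at -0.79 and HSFA3 at -0.75. Of 13 touch genes 4 were lower (30.8%) and 0 higher, with ZAT12 at -0.95. Of 20 gibberellin and cytokinin genes 3 were lower (15%) and 0 higher, with GASA1, a gibberellin-responsive peptide gene, at 56.3 and 67.9 in importin123, against 221 and 240.4 in lhp1-3 and 312 and 299.6 in Col-0 (log2 fold change -1.89 ± 0.17 (SE), adjusted p = 1.04e-06). ARR4 and ARR7, response regulators of cytokinin, had -0.76 and -0.94. The 14 sugar transport genes had 4 higher and 4 lower (28.6% each), with SWEET13 at 1.2 and SWEET4 at 1.42 among the higher and SWEET2 at -0.79 and STP1 at -0.84 among the lower. At an unadjusted p under 0.05 the numbers higher were 1 for heat shock, 0 for touch and 2 for gibberellin and cytokinin, and under DESeq2 they were 0, 0 and 1. The list medians were 0.00 for heat shock and -0.03 for gibberellin and cytokinin. In the nitrate and ammonium list, the members called higher numbered 2 in the fit of the 4 mutant libraries. In the nitrate and ammonium list, the members called lower numbered 2 with lhp1-3 replicate 1 left out and 1 with lhp1-3 replicate 2 or importin123 replicate 1 left out. In the phosphate list, the members called lower numbered 0 with lhp1-3 replicate 1 or importin123 replicate 1 left out. In the heat shock list, the members called lower numbered 2 with importin123 replicate 1 left out. In the touch list, the members called lower numbered 2 with lhp1-3 replicate 1 or importin123 replicate 2 left out, 1 with lhp1-3 replicate 2 left out and 0 with importin123 replicate 1 left out. In the gibberellin and cytokinin list, the members called higher numbered 1 in the fit of the 4 mutant libraries, under DESeq2 or with either Col-0 library left out. In the gibberellin and cytokinin list, the members called lower numbered 5 in the fit of the 4 mutant libraries or with either Col-0 library left out and 1 with lhp1-3 replicate 2 or importin123 replicate 2 left out. In the sugar transport list, the members called higher numbered 2 with either lhp1-3 library left out. In the sugar transport list, the members called lower numbered 2 with lhp1-3 replicate 2 left out and 0 with importin123 replicate 1 left out. NRT1.1 did not pass when either lhp1-3 library was left out (adjusted p from 0.0702 to 0.247). SPX1 did not pass when lhp1-3 replicate 1 or importin123 replicate 1 was left out (adjusted p from 0.0754 to 0.111). PHO1;H1 did not pass when lhp1-3 replicate 1 was left out (adjusted p = 0.0566). MBF1C, HSFA3, ZAT12 and SWEET2 did not pass when importin123 replicate 1 was left out (adjusted p from 0.0558 to 0.0758). ARR4 did not pass when lhp1-3 replicate 2 or either importin123 library was left out or under limma on log2(RPKM + 1) or log2(RPKM + 0.1) (adjusted p from 0.0523 to 0.146). ARR7 did not pass when lhp1-3 replicate 2 or importin123 replicate 2 was left out or under limma on log2(RPKM + 0.1) (adjusted p from 0.0519 to 0.114). SWEET4 did not pass when lhp1-3 replicate 1 or importin123 replicate 2 was left out (adjusted p from 0.0528 to 0.0529). STP1 did not pass when lhp1-3 replicate 2 or importin123 replicate 1 was left out (adjusted p from 0.0721 to 0.0881). PHO1;H1 had a log2 fold change of 1.16, HSFA3 one of -1.21, ARR7 one of -1.41 and SWEET13 one of 2.3 with the floor taken off. SWEET4 lay too close to the floor in at least 1 mutant for a fold without it.

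In the remaining lists few genes passed. Of 21 genes of the cell cycle and histones 4 were higher (19%, against 2.97% of all tested nuclear genes) and 0 lower, with TSO2, a ribonucleotide reductase subunit, at 65.8 and 67.8 in importin123, against 28.8 and 35.5 in lhp1-3 and 43.3 and 49.1 in Col-0 (log2 fold change 1.05 ± 0.14 (SE), adjusted p = 6.76e-05). Of 21 salicylic acid genes 3 were higher (14.3%) and 0 lower, PR2 at 1.28, WRKY70 at 0.63 and WRKY54 at 0.65. PR1, the classic salicylic acid marker, did not pass at 0.64. Of 22 auxin genes 1 was higher (4.55%), the efflux carrier gene PIN7 at 0.79, and 1 was lower (4.55%), GH3.5 at -0.64. Of 22 root and root hair genes RHD6 was higher at 0.96 (4.55%), and SCR and PHT1;1 were lower at -0.66 and -0.52 (9.09%). The shares of the auxin and root lists were near those of all tested nuclear genes, 2.97% higher and 6.33% lower. None of 10 reference genes was called, with a list median of 0.02 and a span from -0.24 for UBQ10 to 0.28, and none of 7 anther genes was called. In both of these lists the count was also 0 at an unadjusted p under 0.05 and under DESeq2, and of the cell cycle and salicylic acid genes 2 and 0 were lower at that unadjusted p and 0 and 0 under DESeq2. In the cell cycle, replication and histones list, the members called higher numbered 2 under DESeq2 or with lhp1-3 replicate 2 left out and 1 with lhp1-3 replicate 1 or either importin123 library left out. In the salicylic acid defence list, the members called higher numbered 7 in the fit of the 4 mutant libraries or with either Col-0 library left out and 0 with importin123 replicate 1 or either lhp1-3 library left out. In the auxin list, the members called lower numbered 2 in the fit of the 4 mutant libraries or with either Col-0 library left out. In the root and root hair list, the members called higher numbered 7 in the fit of the 4 mutant libraries and 6 with either Col-0 library left out. In the root and root hair list, the members called lower numbered 0 with lhp1-3 replicate 1 left out and 1 with lhp1-3 replicate 2 or either importin123 library left out. PR2 did not pass when either lhp1-3 library or importin123 replicate 1 was left out or under limma on log2(RPKM + 1) or log2(RPKM + 0.1) (adjusted p from 0.0591 to 0.191). WRKY70 and GH3.5 did not pass when any 1 of the 4 mutant libraries was left out or under limma on log2(RPKM + 1) or log2(RPKM + 0.1) (adjusted p from 0.0514 to 0.355). WRKY54 did not pass when any 1 of the 4 mutant libraries was left out, with the minimum mean of 20 counts, with the replicate block or under limma on log2(RPKM + 1) or log2(RPKM + 0.1) (adjusted p from 0.0504 to 0.386). PIN7 did not pass when lhp1-3 replicate 1 was left out (adjusted p = 0.137). RHD6 did not pass when lhp1-3 replicate 2 was left out (adjusted p = 0.0718). SCR did not pass when either lhp1-3 library was left out (adjusted p from 0.0503 to 0.0599). PHT1;1 did not pass when lhp1-3 replicate 1 or either importin123 library was left out, under RLE scaling, in the fit of nuclear genes only or under limma on log2(RPKM + 1) or log2(RPKM + 0.1) (adjusted p from 0.0592 to 0.917). Without importin123 replicate 2, the log2 fold change was 0.38 for WRKY70. WRKY54 had a log2 fold change of 1.14 and RHD6 one of 1.71 with the floor taken off. Without lhp1-3 replicate 1, the log2 fold change was -0.28 for PHT1;1. PR2 lay too close to the floor in at least 1 mutant for a fold without it.

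**Figure D3:**
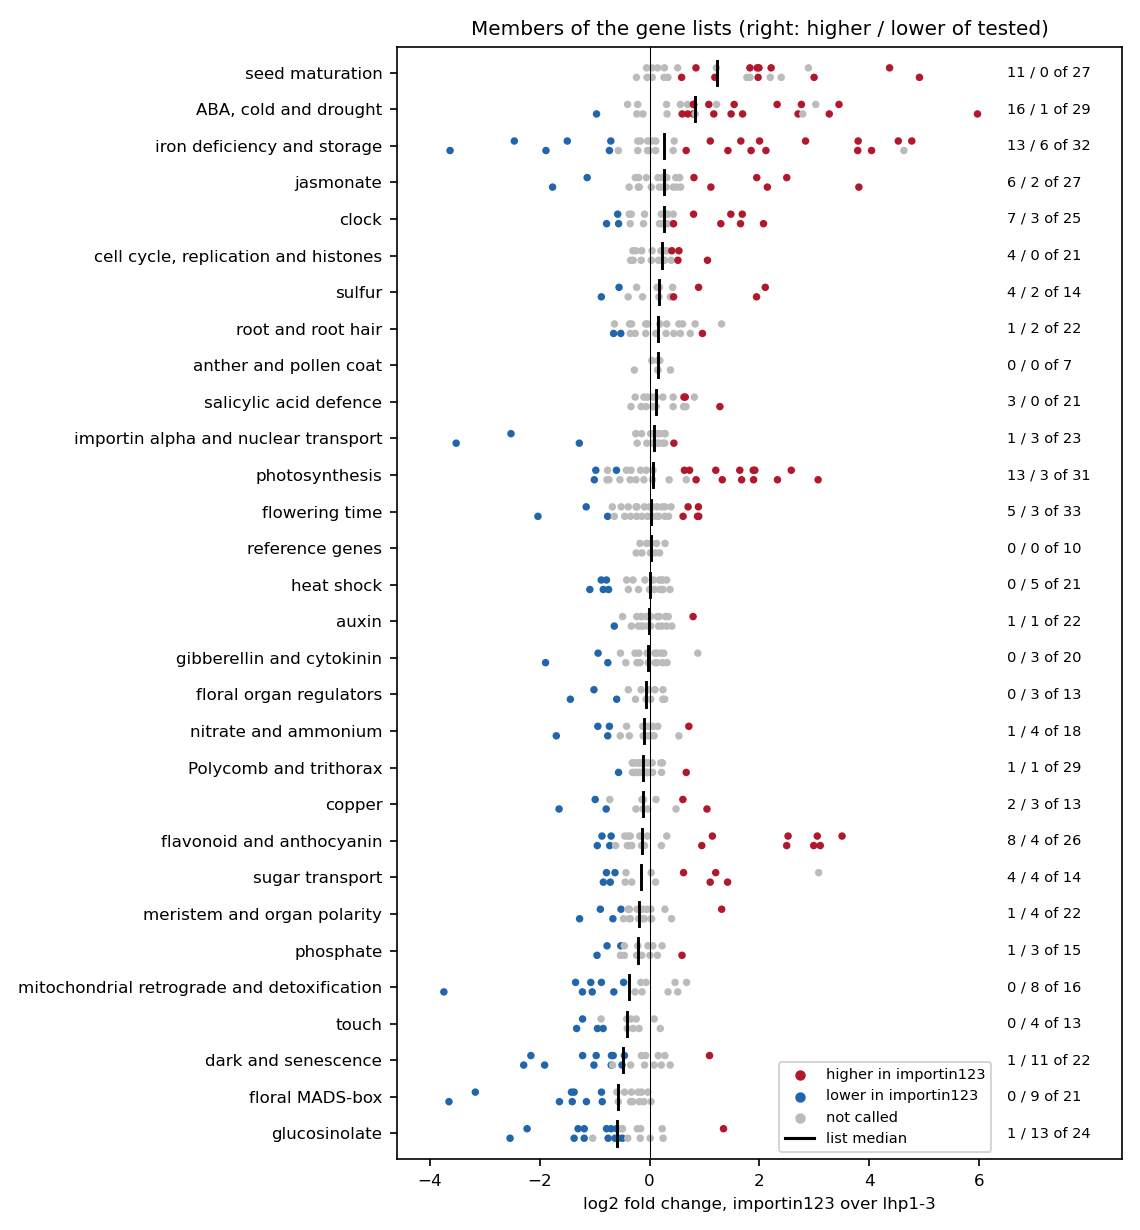
Each point is a gene of 1 of the 30 lists, placed by its log2 fold change of importin123 over lhp1-3, red where called higher, blue where called lower and grey where not called, with the list median as a black bar and the counts higher and lower of those tested at the right. Seed maturation and the ABA list have the highest medians, 1.22 and 0.83, and glucosinolate and floral MADS-box the lowest, -0.59 and -0.57.

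Marker genes of tissues that a pool of whole seedlings can hold were read beside these groups. The 7 anther and pollen coat markers were all under 2 floors in both mutants, with a summed RPKM of 11.3 to 13.7 in importin123, 10.8 to 11.1 in lhp1-3 and 1.72 to 2.07 in Col-0, so anther tissue left no level above the floor. The 12 root and root hair markers summed to 193 to 196 RPKM in importin123, 124 to 133 in lhp1-3 and 103 to 155 in Col-0, with 1 called higher and 2 lower.

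The genes that differed were also placed against Col-0. After each library's floor was taken off, 926 of the genes higher in importin123 could be placed, and the Col-0 mean lay between the mutants for 60.5% of them, below both for 35.1% and above both for 4.43%. Of 2025 placed genes lower in importin123, Col-0 lay above both mutants for 52.8%, between them for 41.7% and below both for 5.43%. Over all 19798 genes kept, the shares were 36.2% above, 27.2% between and 36.7% below. These are places of group means after TMM scaling, on which they depend, with no test. Genes called for a gap between the mutants leave more room for Col-0 between them. The shares between are thus raised in part by the choice of genes and cannot be compared directly with the share over all genes.

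Most calls held when the read floor was taken off, in a second fit of the same counts. Taking off a floor of like height in both mutants by itself moves log2 fold changes away from 0. Their growth is therefore not a separate result. With each library's floor subtracted, 19798 genes could be tested, 1734 were called higher (8.76%) and 2700 lower (13.6%). Of the 2951 genes called on the deposited counts that could be tested again, 2914 were called in the same direction and 0 in the opposite one. A gene was kept only with enough reads above the floor over all 6 libraries, so a gene low in 1 mutant could be kept through the other libraries, and no list is counted in this fit.

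**Figure D4:**
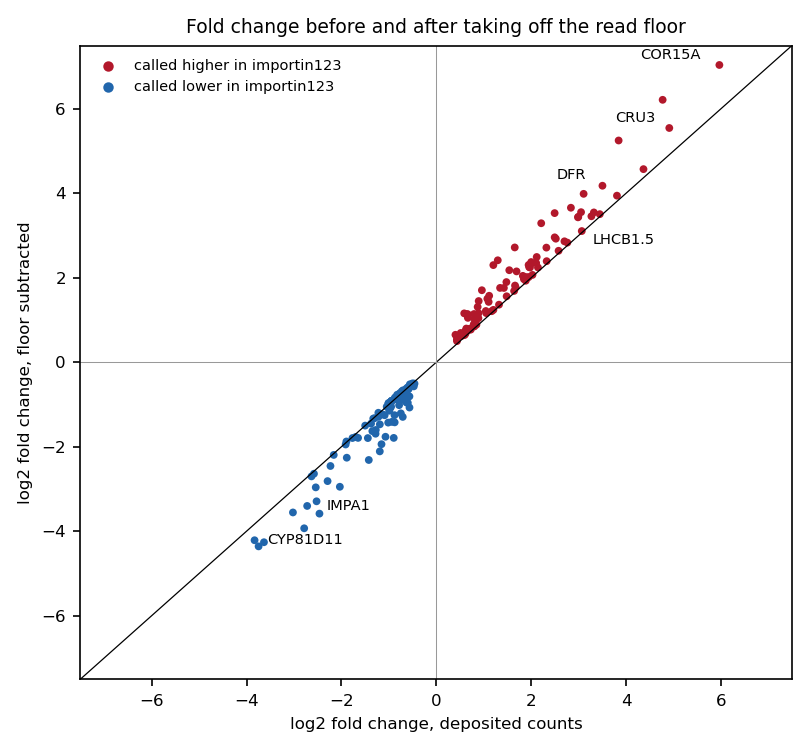
Each of 194 called genes that were above the floor in both mutants is placed by its log2 fold change on the deposited counts (x axis) and with the read floor taken off (y axis), with the line of equality. All 194 kept their sign, and 171 lay farther from 0 after subtraction, such as COR15A at 7.04 and CYP81D11 at -4.21.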

How the data were processed

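Polyadenylated RNA of whole seedlings was sequenced in 2 libraries each of importin123, lhp1-3 and Col-0. The authors deposited raw counts per gene and RPKM in 1 table, and the submitters' processing notes name FastQC, HISAT2, SAMtools, bedtools, edgeR and build TAIR10, with no versions. The deposited counts cover whole gene spans: count, library total and RPKM give a span equal to the TAIR10.1 gene span less 1 base in 32508 of 32524 genes. Strand use in counting is not given in the sources used here, so overlapping and antisense genes and near-identical copies can share reads. Columns were matched to samples by the labels, and the table held 0 sample columns of other origin.

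The main test was edgeR 4.0.16 (R 4.3.3) on the deposited counts: TMM scaling, filterByExpr, robust quasi-likelihood F test over all 6 libraries with 1 coefficient per genotype, contrast importin123 minus lhp1-3, two-sided, Benjamini-Hochberg over all 33906 features tested. Nuclear rows are reported. Depth was 70137936 to 95101867 counts a library. The floor of a library is the median count per kilobase of the bottom 10% by coverage among long (1000 bases or more) nuclear genes that code for protein. Subtracting it, times gene length, was an alternative, for genes with at least 2 floors of counts and a mean of at least 10 counts before and after. A subtracted fold is printed where each mutant's mean RPKM exceeds its floor by at least 0.5 of the floor. The other alternatives were RLE scaling, DESeq2 1.42.0, other filters (none, or a mean of at least 20 counts), the 4 mutant libraries, nuclear genes only, the replicate number as a block, a minimum fold of 1.5, limma 3.58.1 on log2(RPKM + 1) and log2(RPKM + 0.1) of features with a mean RPKM of at least 0.5, and leaving out each library. Fits were tested on simulated data with known changes, where floor-subtracted folds came out somewhat larger than the simulated ones. The simulated means came from the real counts, which already hold a floor, and a further floor was added to the mutant libraries. The excess thus follows in part from that setting and does not measure the subtraction on these data.

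The lists and the genes in them were chosen with earlier results of these data known. Named genes were the mutated genes, the 12 largest rises and falls under the criteria given with them, the 4 most abundant called genes in each direction, and from each list up to 4 called members per direction with the smallest adjusted p, with further members as values. Of 627 list genes, 596 had a symbol in the RefSeq table of TAIR10.1. The reference symbol was used where it differs from the common name.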

Additional observations from a re-analysis of the deposited data

How the results depend on the processing

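Nuclear genes higher and lower in importin123 numbered 958 and 2044. Over fits that each left out 1 library, the higher calls ranged from 455 to 1442 and the lower calls from 603 to 2646. With the floor taken off, 1734 were higher, and a minimum fold of 1.5 left 242 higher and 287 lower. The sentences above on single genes leave out that minimum fold, so a gene named without a limit may still fail under it. The lower calls numbered 1201 under limma on log2(RPKM + 1) and 1098 on log2(RPKM + 0.1). RLE scaling, DESeq2, both other count filters, the 4 mutant libraries and nuclear genes alone kept both counts within 1.5 times. With the replicate block the counts were 932 and 2073, and 9 of the 222 named or called list genes lost their call. Whether same-numbered libraries were grown or prepared together is not given in the labels. Deviations of same-numbered importin123 and lhp1-3 libraries correlated at 0.066, which cannot settle it. None of the 222 genes changed direction in a fit that gave it a value, which was 215 genes with the floor taken off, 220 under DESeq2 and 222 in each of the other alternatives, and calls were lost for 120 under the minimum fold and for 82, 79, 70 and 42 without lhp1-3 replicate 1, lhp1-3 replicate 2, importin123 replicate 1 and importin123 replicate 2. In these fits the lone library is assumed to vary like the other genotypes. Genes near the floor have folds that the depth cannot settle. The cause of these shifts was not tested, and the fits without a library also held fewer libraries.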

Other observations

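Outside protein-coding genes, 35 of 3480 tested long non-coding RNA genes were higher in importin123 and 92 lower, beside 910 higher and 1926 lower of 27403 protein-coding genes. Of 133 chloroplast features 0 were called in edgeR's fit, 0 had an unadjusted p under 0.05 and 0 were called by DESeq2, and their median log2 fold change was 0.02. Of 152 mitochondrial features 1 was called higher and 0 lower, with a median of 0.06. The table's other features, which carry neither kind of identifier, had 3 higher and 9 lower of 1313.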
